A study of Mus musculus with 12 samples.

Results

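The kidney transcripts of 8 genes around the kinase LRRK2 were examined: Lrrk2 itself, the genes of 4 of its Rab substrates (Rab8a, Rab10, Rab12 and Rab29) and the genes of 3 phosphatases of the PPM family (Ppm1h, Ppm1j and Ppm1m). They were found by symbol among the 57180 Ensembl genes counted in each library, and all 8 were among the 17163 genes kept by the filter on low counts. The set was chosen by a measured value: Ppm1h was selected on its lower counts in the CBD-treated mice of these same data, so its differences are given as a description and without a test. The other 7 genes were added for their known roles, although earlier results of these data were known by then. Tests of the difference between groups are given for them with this limit.

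Male C57BL/6J mice had received 1 intraperitoneal injection per day for 28 days before kidney poly(A) RNA was sequenced, with 1 library per mouse. The control group (Control, n = 4) received the placebo, which was saline with Tween 80. The other groups received the same vehicle with CBD (cannabidiol) at 10 mg CBD/kg b.w. (10CBD, n = 4) or 20 mg CBD/kg b.w. (20CBD, n = 4). RNA came from a small piece of whole kidney and not from sorted cells, so fewer cells of a type and less RNA per cell cannot be told apart.

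LRRK2 is a large protein kinase with a GTPase domain, and mutations that raise its activity cause inherited Parkinson's disease. It adds a phosphate to a serine or threonine in the switch II loop of Rab GTPases, the small membrane proteins that direct vesicle traffic, and this changes which partners the Rab can bind. PPM1H removes that phosphate from Rab8 and Rab10, while PPM1J and PPM1M are its closest relatives. The kidney is one of the organs with abundant LRRK2, and loss or inhibition of the kinase changes the lysosomes of tubule cells in rodents. The values below are amounts of mRNA and carry no information on phosphate groups or on kinase activity.

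Between 15417867 and 23532088 reads were counted on genes per library. Mitochondrially encoded genes held 3.53 to 23.4% of these counts, and 4 libraries were under 10%, namely 1 of the control group, 2 of 10CBD and 1 of 20CBD. Markers of the kidney's tubule segments, glomerulus, vessels and immune cells were detected in every group. The summed markers of the proximal tubule reached 7125 to 8951 CPM (counts scaled to a common library size after TMM normalization) in Control, 6200 to 7183 in 10CBD and 5928 to 6418 in 20CBD, so that all mice of 20CBD lay under all control mice. For the other 10 marker lists the summed level of each CBD-treated group overlapped with that of the control group. Lower single markers in 20CBD were not particular to the proximal tubule. All 3 distal convoluted tubule and all 4 intercalated cell markers had log2 fold changes under 0 (edgeR, medians -0.41 and -0.33, 0 called). Of the thick ascending limb and the tested lymphocyte markers, 3 of 4 each were under 0. Of the principal cell and endothelial markers, 3 of 4 each were above 0, of the podocyte markers 2 of 4, and of the tested myeloid markers 4 of 6. The endothelial marker Kdr was at -0.33 (SE 0.11, edgeR adjusted p = 0.419), with 82.0 to 101 CPM in Control and 63.1 to 78.9 in 20CBD. The summed level of the 4 adipocyte markers ranged from 96.0 to 257 CPM in Control, from 67.8 to 135 in 10CBD and from 67.9 to 114 in 20CBD. Of the adrenal cortex markers, Star (3.57 to 5.39 CPM) and Hsd3b1 (0.0544 to 0.586 CPM) were counted in every library. Cyp11a1 was at 0 in 3 libraries, Cyp11b1 in 7 and Cyp21a1 in 10.

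The 4 Rab transcripts and the kinase differed widely in level in the control kidney. Per kilobase of annotated exon, Rab10 stood at 18.7 ± 1.18 CPM (SD, n = 4) and Rab8a at 17.8 ± 0.97, and the values of their mice overlapped. Lrrk2 followed with 8.47 ± 0.47 CPM per kilobase, Rab12 with 8.01 ± 0.84 and Ppm1h with 7.87 ± 0.27. In this order Lrrk2 overlapped with Rab12, and Rab12 with Ppm1h. Ppm1m reached 4.40 ± 0.77 CPM per kilobase, Rab29 3.24 ± 0.12 and Ppm1j 0.311 ± 0.111, and none of these overlapped with its neighbour in the order. Among all genes tested, Rab10 was at the 90.6th percentile of the level per kilobase and Ppm1j at the 14.1th. With the length of the canonical transcript in place of all exons, only Rab8a (25.6 CPM per kilobase) and Rab10 (20.5) changed places.

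**Figure D1:**
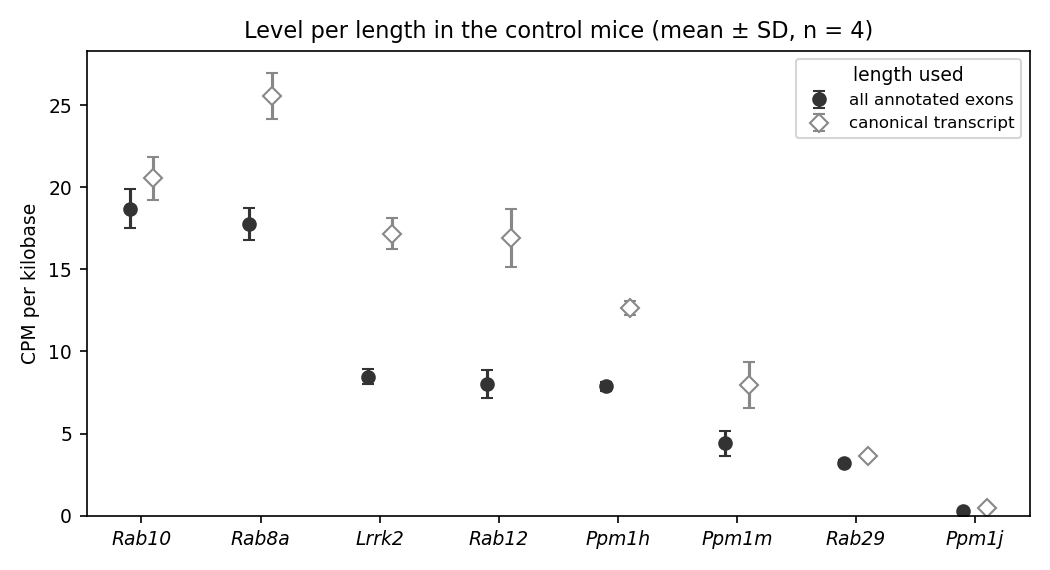
Level of each gene in the control mice in CPM per kilobase (vertical axis), by the length of all annotated exons (filled circles) or of the canonical transcript (open diamonds), as mean ± SD of 4 mice. Rab10 and Rab8a stand highest, Lrrk2, Rab12 and Ppm1h lie between 7.87 and 8.47 by exon length, and Ppm1j is the lowest at 0.311.

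Ppm1h, the phosphatase gene for phosphorylated Rab8 and Rab10, was expressed at a lower level in both CBD-treated groups. It lies on chr10:122514667-122781700 of GRCm39, on the plus strand. Its level was 77.2, 84.0, 80.5 and 80.2 CPM in the control mice, 48.6, 57.9, 57.1 and 57.1 in 10CBD, and 58.5, 56.4, 50.5 and 53.5 in 20CBD. Every CBD-treated mouse lay under every control mouse, by a gap from 58.5 to 77.2 CPM, and the doses overlapped with each other. The group means were 80.5 ± 2.79 CPM in Control, 55.2 ± 4.42 in 10CBD and 54.7 ± 3.49 in 20CBD (SD, n = 4). The log2 fold change against the control group was -0.54 (SE 0.10) in 10CBD and -0.56 (SE 0.10) in 20CBD, with the same control mice in both comparisons. Between the doses it was -0.01 (SE 0.10).

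By edgeR at an adjusted p under 0.1, 0 of the 8 genes were called in 10CBD, where 0.0291% of all genes tested were called. In 20CBD 1 of the 8, Ppm1h, was called, beside 0.303% of all genes tested. Because Ppm1h was listed for this change, nothing is read from that count, which fell to 0 with a replicate block and in 7 of the 12 fits that left out 1 library (any control mouse, or 20CBD replicate 2, 3 or 4). Between the doses 0 of the 8 were called, and 0% of all genes tested. At an unadjusted p under 0.05, edgeR counted 1 of the 7 other genes in 10CBD, 2 in 20CBD and 2 between the doses, beside 5.67%, 8.45% and 6.31% of all genes tested. DESeq2 called 1 of the 8 in 10CBD, 1 in 20CBD and 0 between the doses, beside 0.233%, 1.06% and 0.0699% of all genes tested. With limma-voom the counts were 0, 1 and 0, beside 0.0291%, 0.28% and 0%.

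Mice of all 3 groups were found both over and under a mitochondrial share of 10%, and Ppm1h is given within each part. Among the 8 libraries over 10%, Ppm1h stood at 79.3 ± 1.83 CPM in Control (n = 3), 57.5 ± 0.62 in 10CBD (n = 2) and 56.1 ± 2.53 in 20CBD (n = 3). Among the 4 libraries under 10%, the control mouse had 84.0 CPM, the 2 mice of 10CBD had 48.6 and 57.1, and the mouse of 20CBD had 50.5. The lowest Ppm1h of each CBD-treated group thus came from a library under 10%. Of the 6 proximal tubule markers, edgeR called 1 lower in 20CBD, the glucose transporter gene Slc5a2, with a log2 fold change of -0.61 (SE 0.12, adjusted p = 0.0820). The other 5 ranged from -0.76 for the megalin gene Lrp2 (SE 0.18, edgeR adjusted p = 0.173) to -0.0024 for the transporter gene Slc13a3. In 10CBD, 0 of the 6 were called and their log2 fold changes ran from -0.45 to 0.04. Of the 4 adipocyte markers, 0 were called at either dose, with log2 fold changes from -1.83 to -0.75 in 10CBD and from -3.42 to -0.74 in 20CBD, and at an unadjusted p under 0.05 there were 2 and 4. The part of these markers and of the mitochondrial share in the Ppm1h values was not tested.

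The promoter of Ppm1h is shown because the level of this gene separated the control group from both CBD-treated groups. The 250 bases before the RefSeq start site, taken from the RefSeq table for GRCm38.p6 (chr10:122678512-122678761, plus strand), read as follows, with matches to the nuclear receptor motif AGGTCA in capitals.
Ppm1h promoter: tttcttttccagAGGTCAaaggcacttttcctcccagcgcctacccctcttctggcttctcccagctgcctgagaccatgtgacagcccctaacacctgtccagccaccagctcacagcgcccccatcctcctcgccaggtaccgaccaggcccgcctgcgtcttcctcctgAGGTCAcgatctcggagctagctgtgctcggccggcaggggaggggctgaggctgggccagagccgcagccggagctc
The matches lie at -238 to -233 and at -78 to -73 from the start. Searched on both strands, AGGTCA was present in 14.0% of the 32851 mouse promoters of the table and at least 2 matches were present in 1.36%. The E-box CACGTG (6.02% of promoters), the D-box TTATGTAA (0.819%) and the GC box GGGCGG (32.7%) were not found in this window. AGGTCA was not found in the promoter windows of the other 7 genes, while the D-box occurred in that of Rab29 and the GC box in those of Lrrk2, Ppm1j, Ppm1m, Rab10 and Rab12. These are matches of letters only.

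Ppm1j and Ppm1m, the relatives of Ppm1h, did not share its pattern of lower values. Ppm1j (chr3:104688349-104693339, plus strand) was the rarest of the 8 transcripts, with 12 to 54 reads per library. Its level was 0.504, 0.906, 1.16 and 0.652 CPM in the control mice, 2.39, 1.52, 2.03 and 1.17 in 10CBD, and 0.878, 2.16, 1.62 and 0.960 in 20CBD. All mice of 10CBD lay above all control mice, although 1.17 and 1.16 CPM are nearly equal, while the mice of 20CBD overlapped with the control group. The log2 fold change was 1.16 (SE 0.36) in 10CBD and 0.80 (SE 0.37) in 20CBD, and neither passed edgeR's test over all genes (adjusted p = 0.796 and 0.584). The exact permutation test, two-sided over the 70 arrangements of 4 mice against 4, gave p = 0.0286 in 10CBD, the smallest it allows, and p = 0.143 in 20CBD. Adjusted over the 21 such tests, the former became 0.2. The neighbouring gene Tafa3 overlaps the exons of Ppm1j on the other strand but had only 0.0954 to 0.361 CPM.

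Ppm1m (chr9:106072106-106076945, minus strand) varied most in the 10CBD group. Its level was 16.3, 17.4, 12.8 and 12.2 CPM in the control mice, 34.4, 13.9, 19.3 and 12.1 in 10CBD, and 11.5, 12.5, 17.8 and 16.7 in 20CBD. A single mouse of 10CBD had the level of 34.4 CPM, and the groups overlapped otherwise. Against the control group the log2 fold change was 0.45 (SE 0.27, edgeR adjusted p = 0.891) in 10CBD and -0.01 (SE 0.27, adjusted p = 0.998) in 20CBD. Without that mouse (10CBD replicate 1) the value in 10CBD was 0.04. The high values went with the libraries of low mitochondrial share: the 4 libraries under 10% had 17.4 to 34.4 CPM of Ppm1m and the other 8 had 11.5 to 16.7. Within the 8 libraries over 10% the log2 fold change in 10CBD was -0.09.

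**Figure D2:**
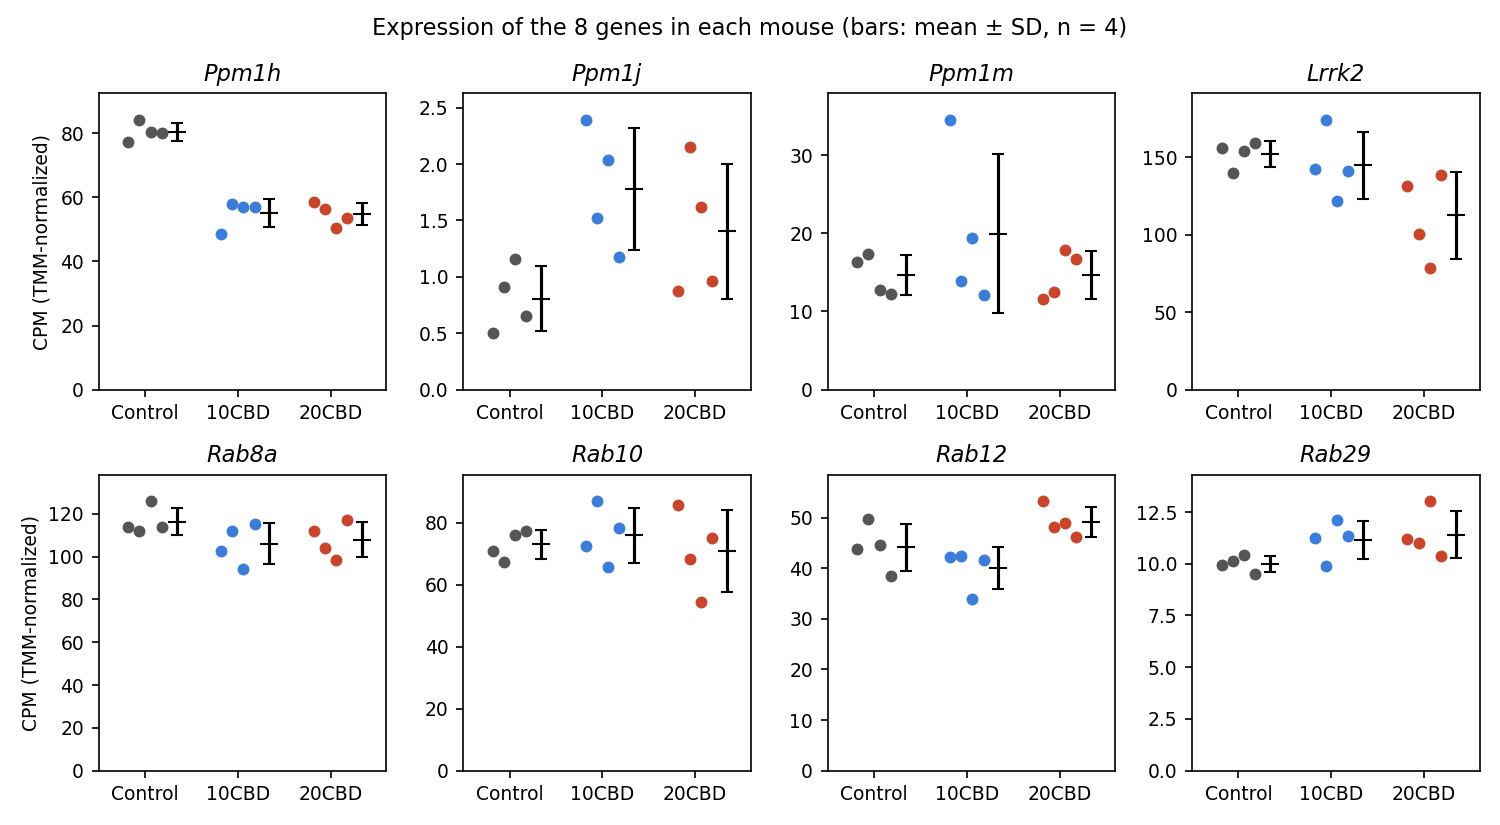
Level of each of the 8 genes in CPM (vertical axis, from 0) in each mouse of the control group, 10CBD and 20CBD, with mean ± SD of 4 mice beside the points. For Ppm1h all 8 CBD-treated mice lie at or under 58.5 CPM and all control mice at or above 77.2, whereas for Rab8a, Rab10 and Rab29 the groups overlap.

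Of the summed level per kilobase of the 3 phosphatase transcripts, Ppm1h made up 62.7 ± 3.61% in Control, 46.9 ± 12.5% in 10CBD and 52.3 ± 6.43% in 20CBD (SD, n = 4). In single mice the share ran from 59.6 to 66.7% in Control, from 29.7 to 57.7% in 10CBD and from 45.3 to 60.1% in 20CBD. The mouse at 29.7% was the one with the highest Ppm1m. By mean level per kilobase, Ppm1h was the most abundant of the 3 in Control (7.87 against 4.40 for Ppm1m) and 20CBD (5.35 against 4.39). In 10CBD its mean of 5.40 (SD 0.43) lay under the 5.99 (SD 3.04) of Ppm1m. That mean of Ppm1m includes the mouse at 29.7%, which reached 10.3 CPM per kilobase.

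Lrrk2, the kinase gene (chr15:91557083-91700604, plus strand), had lower values in the group of the higher dose. Its level was 156, 140, 154 and 159 CPM in the control mice, 142, 174, 122 and 141 in 10CBD, and 132, 101, 78.7 and 139 in 20CBD. The mice of 20CBD spread over a wide range and all lay under the control mice, the closest pair being 139 and 140 CPM. The log2 fold change in 20CBD was -0.44 (SE 0.17), with an edgeR p of 0.0187 and an adjusted p of 0.485 over all genes. The exact permutation test gave p = 0.0286, or 0.2 after adjustment over the 21 tests. In 10CBD the log2 fold change was -0.07 (SE 0.16, edgeR adjusted p = 0.971), and the exact permutation p was 0.571. Between the doses it was -0.36 (SE 0.17, edgeR adjusted p = 0.782), with an exact permutation p of 0.143, so the doses were not shown to differ.

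With each of the 12 libraries left out in turn, the log2 fold change of Lrrk2 in 20CBD ran from -0.55 to -0.30. The latter was without the mouse with 78.7 CPM (edgeR adjusted p = 0.758), the 20CBD library under 10% mitochondrial counts. With the mitochondrial share as a covariate the value was -0.49, near to that without it, and passed the threshold (edgeR adjusted p = 0.0565). That setting also raised the number of all genes called in 20CBD from 52 to 935. The summed proximal tubule markers of 20CBD (5928 to 6418 CPM) also lay under those of all control mice, while those of 10CBD (6200 to 7183 CPM) reached into the control range with their highest value only. The part of this in the Lrrk2 values was not tested.

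Lack of overlap between groups was counted over all genes as a background. In 10CBD against Control, 2 of the 8 genes did not overlap, Ppm1h and Ppm1j, beside 3.19% of all genes tested. In 20CBD against Control, 2 of the 8 did not overlap, Ppm1h and Lrrk2, beside 5.3%. Between the doses, only Rab12 of the 8 did not overlap, beside 3.1%. Apart from Ppm1h this is 1 gene of 7 in each comparison, too few to set against those shares.

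**Figure D3:**
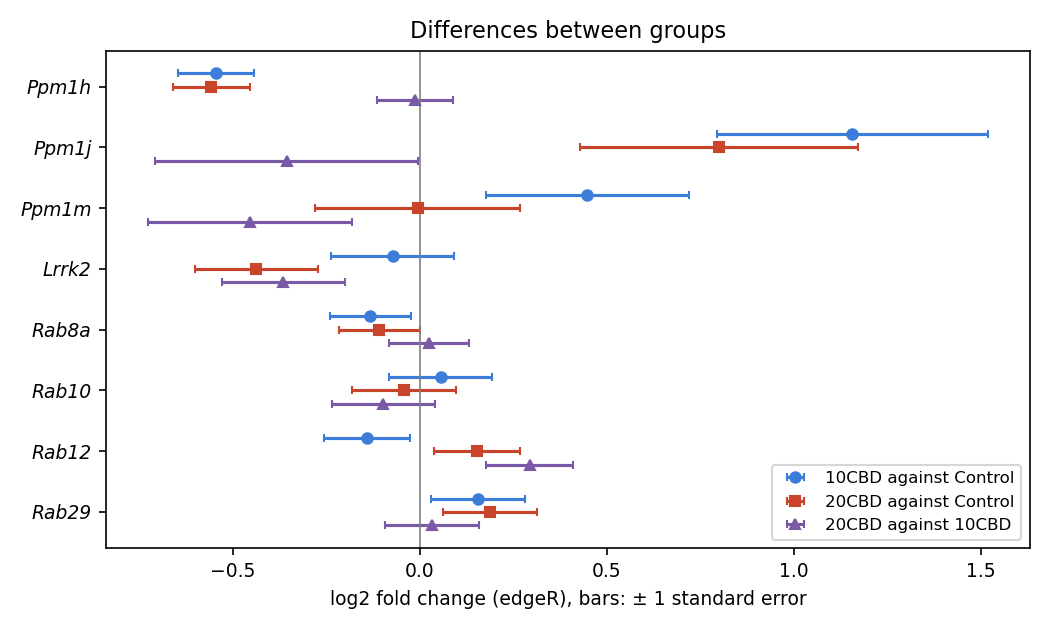
Log2 fold change of each gene (horizontal axis, edgeR) with ± 1 SE for 10CBD against Control (blue circles), 20CBD against Control (red squares) and 20CBD against 10CBD (purple triangles). Ppm1h lies at -0.54 and -0.56 against Control and at -0.01 between the doses, Lrrk2 at -0.07 and -0.44 against Control, and the 4 Rab genes between -0.14 and 0.19 against Control, with Rab12 at 0.29 between the doses.

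The 4 Rab genes encode small GTPases with related switch II stretches around the LRRK2 site, and these are printed to show what the kinase and the phosphatases act on. Each line gives 30 coding bases of the GENCODE canonical transcript, and capitals mark the codon of the serine or threonine at the aligned position.
Rab8a codon 72: caggagcggtttcgaACAatcacgacagcc
Rab10 codon 73: caggagcgatttcacACCatcacaacctcc
Rab12 codon 153: caggagcgatttaacAGCattacctcagcc
Rab29 codon 72: caggagcgtttcacaTCCatgacacgactc
Rab8a and Rab10 carry a threonine codon there, and Rab12 and Rab29 a serine codon. Each stretch lies within 1 exon, at chr8:72925097-72925126 (plus strand), chr12:3306963-3306992 (minus strand), chr17:66807401-66807430 (minus strand) and chr1:131798420-131798449 (plus strand) of GRCm39. The codon numbers are those of the canonical transcripts, of which that of Rab12 has 291 codons and those of the others 200 to 207.

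Rab8a, whose product carries vesicles to the cell surface and the primary cilium, stood at 114, 112, 126 and 114 CPM in the control mice, 103, 112, 94.5 and 115 in 10CBD, and 112, 104, 98.5 and 117 in 20CBD. The groups overlapped, with the highest value in a control mouse. Its log2 fold change was -0.13 (SE 0.11, edgeR adjusted p = 0.908) in 10CBD and -0.11 (SE 0.11, adjusted p = 0.854) in 20CBD. Rab10, which acts in exocytosis and in the insertion of glucose transporters in fat and muscle, stood at 71.0, 67.5, 76.2 and 77.4 CPM in Control, 72.4, 86.9, 65.9 and 78.5 in 10CBD, and 85.9, 68.2, 54.5 and 75.1 in 20CBD. Its spread was wider in the CBD-treated groups, and their values lay on both sides of the control range. Its log2 fold change was 0.06 (SE 0.14, edgeR adjusted p = 0.973) in 10CBD and -0.04 (SE 0.14, adjusted p = 0.970) in 20CBD. An antisense gene, Rab10os, shares 842 exon bases with Rab10 and had 9.84 to 15.9 CPM, so that a part of the Rab10 counts depends on how strand was treated in counting.

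Rab12, which acts in transport from recycling endosomes to lysosomes, had the largest difference between the doses of the 4 Rab genes. Its level was 43.7, 49.8, 44.5 and 38.5 CPM in the control mice, 42.2, 42.5, 33.9 and 41.6 in 10CBD, and 53.2, 48.1, 48.9 and 46.1 in 20CBD. All mice of 20CBD lay above all mice of 10CBD, and the control mice overlapped with both. The log2 fold change between the doses was 0.29 (SE 0.12, edgeR adjusted p = 0.758), with an exact permutation p of 0.0286, or 0.2 after adjustment. Against the control group it was -0.14 (SE 0.12, edgeR adjusted p = 0.910) in 10CBD and 0.15 (SE 0.12, adjusted p = 0.789) in 20CBD. The lowest value, 33.9 CPM, came from a library with a mitochondrial share under 10%. The difference between the doses was 0.22 on the log2 scale without that mouse.

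Rab29, a Rab of the Golgi that can recruit LRRK2 to membranes, was the least abundant of the 4. It stood at 9.95, 10.1, 10.4 and 9.52 CPM in the control mice, 11.2, 9.90, 12.1 and 11.3 in 10CBD, and 11.2, 11.0, 13.0 and 10.4 in 20CBD. Most CBD-treated mice were above the control range, but 1 mouse of each dose reached into it. The log2 fold change was 0.16 (SE 0.13, edgeR adjusted p = 0.906) in 10CBD and 0.19 (SE 0.13, adjusted p = 0.750) in 20CBD, with exact permutation p-values of 0.114 and 0.0571.

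Set against the phosphatase transcript, the summed level per kilobase of the 4 Rab genes was 6.06 ± 0.29 times that of Ppm1h in Control, 8.65 ± 0.91 times in 10CBD and 8.82 ± 0.50 times in 20CBD (SD, n = 4). In single mice the ratio ran from 5.68 to 6.37 in Control, from 7.40 to 9.58 in 10CBD and from 8.28 to 9.34 in 20CBD, without overlap between control and CBD-treated mice. The ratio of Lrrk2 to Ppm1h was 1.08 ± 0.09 in Control and 1.17 ± 0.26 in 20CBD. In the mice of 10CBD it ran from 1.21 to 1.71, above the control range of 0.949 to 1.15, while 20CBD ranged from 0.888 to 1.48. Since Ppm1h is the divisor, these ratios hold the same difference as the values given above and are a description.

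Across the 12 mice, Lrrk2 varied together with some of the Rab genes. On the log2 CPM scale, Lrrk2 and Rab29 ran in opposite directions, with Pearson's r = -0.815 (permutation p = 0.00136, 0.0286 adjusted over the 21 pairs of the 7 genes) and Spearman's rho = -0.741 (permutation p = 0.00742, adjusted 0.156). The permutations for pairs of genes moved mice freely across the 3 groups, so differences between groups can enter these p-values. Without the 2 mice farthest from the median of Lrrk2, r was -0.814. Within the 8 libraries over 10% mitochondrial counts it was -0.679, and with the group means removed it was -0.867. Of all genes tested, 0.868% had an r with Lrrk2 at least as negative.

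Lrrk2 and Rab10 ran in the same direction, with r = 0.792 (permutation p = 0.0035, adjusted 0.0367) and rho = 0.615 (permutation p = 0.0386, adjusted 0.201). Without the 2 mice farthest from the median of Lrrk2, r was 0.468, so the value rested to a large part on them. It was 0.519 within the 8 libraries over 10% mitochondrial counts and 0.921 with the group means removed, and 2.09% of all genes tested had an r with Lrrk2 at least as high. At the adjusted threshold of 0.1, 8 of the 21 pairs passed by Pearson's r and 0 by Spearman's rho. The share of passing pairs over all genes was not determined, so nothing is read from this count. Some of the pairs rested on few mice. Without the 2 mice farthest from the median of Rab8a, Rab8a and Rab10 had r = 0.274 in place of 0.618. Without the 2 farthest from the median of Rab10, Rab10 and Rab29 had -0.115 in place of -0.607. The 6 passing pairs other than those of Lrrk2 with Rab29 and Rab10 had adjusted permutation p-values of 0.0804 to 0.0940 by Pearson's r. Among them, Lrrk2 and Rab8a had r = 0.647, and 0.760 with the group means removed. It was 0.538 without the 2 mice farthest from the median of Lrrk2 and 0.581 within the 8 libraries over 10% mitochondrial counts. Of all genes tested, 7.76% had an r with Lrrk2 at least as high. The libraries differed in depth, and the part of this in the correlations was not tested.

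**Figure D4:**
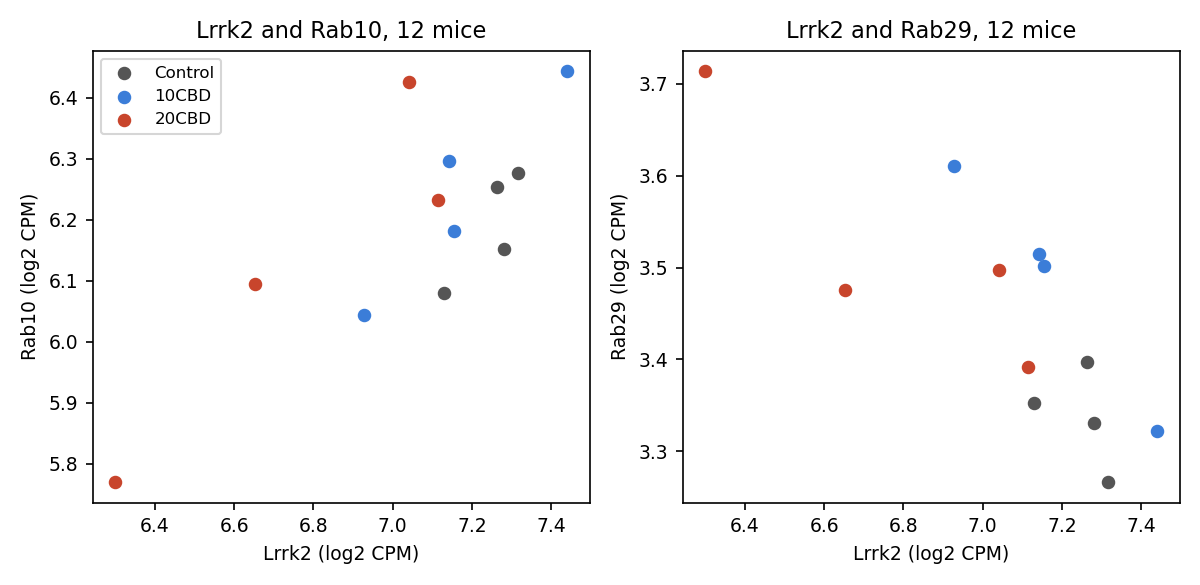
Level of Lrrk2 (horizontal axes, log2 CPM) against Rab10 (left) and Rab29 (right, log2 CPM) in each of 12 mice, coloured by group. The mouse of 20CBD with the lowest Lrrk2, 78.7 CPM, has the lowest Rab10, 54.5 CPM, and the highest Rab29, 13.0 CPM.

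The genes whose level over the 12 mice was most like that of Ppm1h were Net1, a guanine nucleotide exchange factor for RhoA (r = 0.965), Acmsd, a kidney and liver enzyme of tryptophan breakdown (0.941), Ipmk, an inositol phosphate kinase (0.940), Sema4a (0.938) and Ctif (0.919). With the group means removed their r with Ppm1h was 0.625, 0.612, 0.607, 0.641 and 0.851. The choice of the genes by r over the same mice also favours high values here, so nothing further is read from them. Acmsd stood at 74.0 ± 6.30 CPM in Control, 43.8 ± 4.51 in 10CBD and 39.5 ± 8.01 in 20CBD (SD, n = 4), and Net1 at 309 ± 14.7, 250 ± 10.8 and 250 ± 3.21. The most opposite genes were Dbp, a clock-controlled transcription factor (r = -0.924), Chst15, a chondroitin sulfotransferase (-0.913), the annotated miRNA gene Gm55632 (-0.911), Enkur (-0.909) and Tlcd1 (-0.906). With the group means removed, r was 0.0704 for Dbp, -0.770 for Chst15, -0.511 for Gm55632, -0.497 for Enkur and -0.667 for Tlcd1. Dbp stood at 2.36 ± 0.70 CPM in Control, 15.7 ± 2.81 in 10CBD and 24.0 ± 2.22 in 20CBD. These correlations are over 12 libraries that share their groups, and they were used to pick the genes, so they carry no test.

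**Figure D5:**
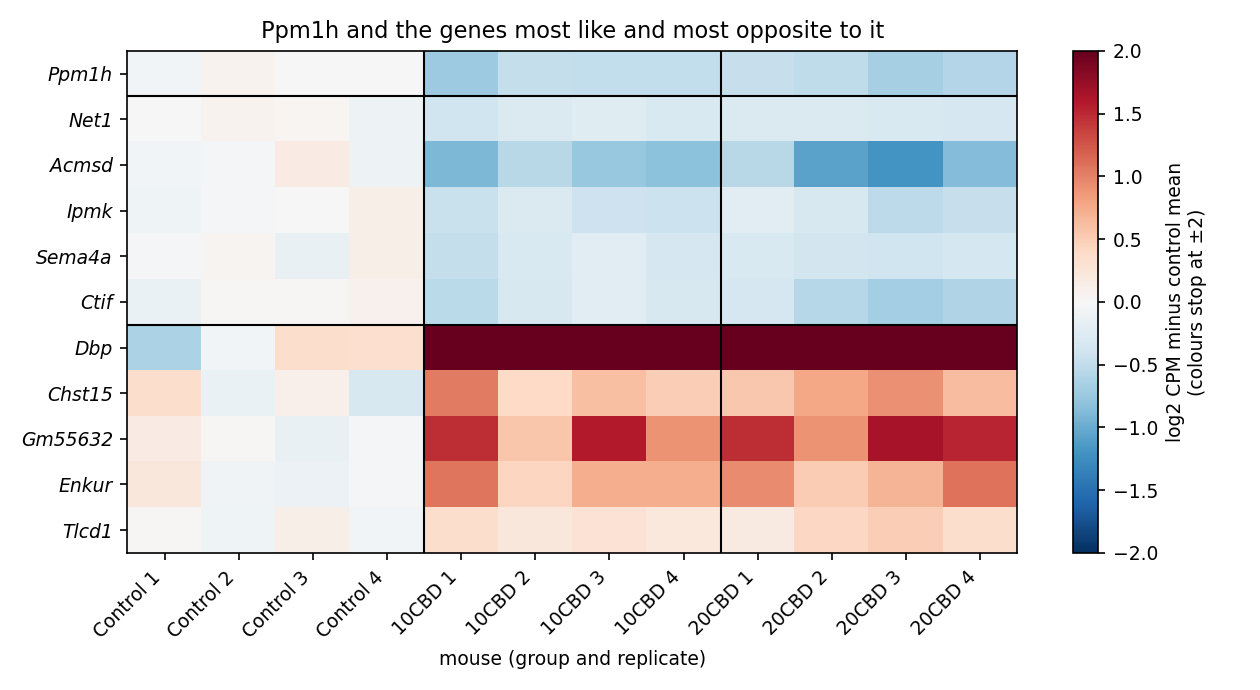
Log2 CPM minus the control mean (colour, stopped at ± 2) of Ppm1h, the 5 genes most like it and the 5 most opposite to it (rows) in each of the 12 mice (columns). The upper 6 rows are lower in all CBD-treated mice than the control mean and the lower 5 are higher, with Dbp the farthest from it.

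The genes most like Lrrk2 over the 12 mice were Fam13b (r = 0.951), Ptgr2 (0.950) and Cxadr (0.945), and with the group means removed their r was 0.942, 0.919 and 0.905. None of these was among the genes most like Ppm1h. Ptgr2, a prostaglandin reductase, stood at 108 ± 7.65 CPM in Control, 107 ± 8.29 in 10CBD and 88.0 ± 16.8 in 20CBD (SD, n = 4).

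None of the other genes of the pathway passed edgeR's test over all genes. The 65 genes were in 4 lists (other Rab substrates of LRRK2, Rab effectors and LRRK2 partners, Rab regulators and carriers, and other PPM phosphatases), and 63 were tested. EdgeR called 0 in either direction at either dose, beside 0.0291% of all genes tested in 10CBD and 0.303% in 20CBD. DESeq2 called 0 as well, beside 0.233% and 1.06%, and so did limma-voom, beside 0.0291% and 0.28%. With 63 genes, a count of 0 is too near these shares to be read as a result about the lists. At an unadjusted p under 0.05 there were 0 in 10CBD and 2 in 20CBD, beside 5.67% and 8.45% of all genes tested. Rab3c and Ppm1n were counted too rarely to be tested.

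Of the 10 other Rab substrates, 9 were tested, with a median log2 fold change of -0.05 in 10CBD and 0.10 in 20CBD, beside 0.01 for all genes tested at both doses. The 2 genes at an unadjusted p under 0.05 in 20CBD were both of this list and are named after their values were seen. Rab3a, a Rab of regulated secretion, stood at 5.96 ± 1.12 CPM in Control, 6.75 ± 0.49 in 10CBD and 8.90 ± 1.49 in 20CBD (SD, n = 4), with a log2 fold change of 0.58 in 20CBD (SE 0.17, edgeR adjusted p = 0.340). Rab43, a Rab of the Golgi, stood at 3.26 ± 0.95, 4.44 ± 1.30 and 5.88 ± 2.00 CPM, with 0.85 in 20CBD (SE 0.29, edgeR adjusted p = 0.419). The most abundant of the list per kilobase were the early endosome genes Rab5c, at 46.4 CPM per kilobase over all 12 mice, and Rab5b, at 16.2. Their log2 fold changes were -0.18 and -0.13 in 10CBD and 0.04 and -0.07 in 20CBD (edgeR adjusted p from 0.914 to 0.974).

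The 21 effectors and partners were all tested, and their median log2 fold change was -0.02 in 10CBD and -0.04 in 20CBD, within a range of -0.27 to 0.34 over both. The most abundant were the 14-3-3 protein genes Ywhae (77.1 CPM per kilobase) and Ywhaz (49.9), whose products bind phosphorylated LRRK2. Their log2 fold changes were 0.02 and -0.16 in 10CBD and 0.03 and -0.06 in 20CBD. The 18 regulators and carriers had medians of -0.05 at both doses. The most abundant were Gdi2 (30.9 CPM per kilobase), which extracts Rabs from membranes, and Rab3ip (30.1), an exchange factor for Rab8. Their log2 fold changes were -0.04 and 0.11 in 10CBD and 0.09 and 0.11 in 20CBD.

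Of the 16 other PPM phosphatases, 15 were tested, with a median log2 fold change of -0.03 in 10CBD and 0.02 in 20CBD and single values from -0.25 to 0.30. The most abundant were Ppm1g (20.4 CPM per kilobase), a nuclear phosphatase, and Ppm1b (15.0), which acts on stress and inflammatory kinases. Ppm1g had a log2 fold change of 0.11 (SE 0.18) in 10CBD and 0.06 (SE 0.18) in 20CBD, and Ppm1b 0.16 (SE 0.14) and 0.14 (SE 0.14). Each of these single values is nearer to 0 than the -0.54 and -0.56 of Ppm1h, a comparison that rests on the choice of Ppm1h and was not tested.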

How the data were processed

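The authors prepared directional libraries from poly(A) RNA, cleaned reads with Flexbar, aligned them with STAR 2.7.5c against GRCm39 and obtained gene counts with HTSeq 1.99.2. The deposited files hold raw counts of 57180 Ensembl genes, 1 file per mouse. The annotation release, the strand setting and the use of molecular identifiers were not given in the sources used here. Symbols and exon lengths came from GENCODE vM39 (99.02% of identifiers matched).

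Genes were kept by filterByExpr, which left 17163. TMM-normalized counts of all 12 libraries were fitted with a mean per group by edgeR 4.0.16 (quasi-likelihood test) in R 4.3.3, and p-values were adjusted by Benjamini-Hochberg over all genes tested, with the study's threshold of 0.1. Mean log2 CPM (prior count 2) of single genes was compared by exact permutation tests. The libraries had a median of 18193787.5 counts. This depth limits Ppm1j most (12 to 54 reads per library) and next Rab29 (150 to 268 reads).

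Alternatives were RLE normalization, DESeq2 1.42.0, limma-voom (limma 3.58.1), no filter, a model of only the groups compared, a replicate block, the mitochondrial share as a covariate, removal of mitochondrial genes, a threshold of 0.05, a prior count of 0.5, CPM without TMM and leaving out each library. The 8 libraries over 10% mitochondrial counts were fitted alone as an alternative chosen after seeing the data. The genes, the 4 pathway lists and the 11 marker lists were chosen with earlier results of these data known. Named genes are the 8 genes, the 2 of each pathway list with the highest level per kilobase, the 5 most like and 5 most opposite to Ppm1h and the 3 most like Lrrk2 by Pearson's r of log2 CPM. No called gene was in the pathway lists. Rab3a and Rab43 were named after their values were seen, as were Slc5a2, Lrp2 and Slc13a3 of the proximal tubule markers. The same holds for Kdr of the endothelial markers, the single adrenal cortex markers and the genes that overlap the 8.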

Additional observations from a re-analysis of the deposited data

Results flagged for a closer look

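In 24 sets of 4 mice (8 genes in 3 groups), the highest or lowest mouse stood far from the other 3 by Dixon's criterion in 3, and chance marks about 1 in 20 sets. In 10CBD the lowest Ppm1h was 48.6 CPM, with the other mice at 57.1 to 57.9. Without that mouse the log2 fold change of Ppm1h in 10CBD was -0.49 in place of -0.54. In the control group the highest Rab8a was 126 CPM, with the others at 112 to 114. In 10CBD the lowest Rab12 was 33.9 CPM, with the others at 41.6 to 42.5. The 10CBD libraries concerned both had mitochondrial shares under 10% (3.53% and 4.55%), and the Rab8a library had 17.5%; the part of this share was not tested.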

How the results depend on the processing

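Counts of called genes held under most alternatives. Nothing is read from the calls of Ppm1h, which was listed for its change in these data. In 10CBD against Control the 8 genes gave 1 call (Ppm1h) in place of 0 with DESeq2, without a filter and with the mitochondrial share as a covariate. In 20CBD they gave 2 in place of 1 with that covariate (Ppm1h and Lrrk2, the latter at -0.49). Leaving out single libraries, the count in 20CBD ranged from 0 to 1, and it was 0 without any 1 of the 4 control mice or without replicate 2, 3 or 4 of 20CBD, while the log2 fold change of Ppm1h stayed between -0.59 and -0.52. The other counts among the 8 genes and the pathway lists ranged from 0 to 0, and calls over all genes ranged from 2 to 8 in 10CBD and from 14 to 54 in 20CBD. The pathway lists gave 1 gene (Rab43) in 20CBD without a filter and 2 (Rab43 and Rab3a) with the covariate, in place of 0. Over all genes, calls in 10CBD and 20CBD numbered 5 and 52, against 40 and 182 with DESeq2, 331 and 416 without a filter, 13 and 935 with the covariate, and 26 and 107 in libraries over 10% mitochondrial counts. Without TMM, the exact permutation test in 20CBD reached p under 0.05 for 2 of 7 genes (Lrrk2 and Rab8a) in place of 1. No permutation test of 3 mice against 4 was made. The cause of these changes was not tested.

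The replicate block called 0 of the 8 genes in 20CBD in place of 1, with Ppm1h at -0.56 (SE 0.12) as against -0.56 (SE 0.10), and 27 of all genes in place of 52. The labels do not say what mice of the same replicate number share. Correlations of same-numbered mice ran from -0.330 to 0.317, with 4 of 12 over 0.1, and 4 of 24 comparisons were highest with the own number. The median was 0.032 for the same number and -0.020 for different numbers. With 4 mice per group, these values cannot decide whether the numbers mark a block.

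Some log2 fold changes of genes that were not called changed sign, and so did that of Ppm1h between the doses. With the covariate, Lrrk2 in 10CBD was 0.0144, Ppm1m in 20CBD 0.101 and Rab8a between the doses -0.0417. With the block, Ppm1m in 20CBD was 0.0205. Without a filter, Ppm1h between the doses was 0.001. In libraries over 10% mitochondrial counts, Lrrk2 in 10CBD was 0.0078, Ppm1m -0.09 in 10CBD (in place of 0.45) and 0.0685 between the doses (in place of -0.45), Rab10 in 20CBD 0.0319 and Rab8a between the doses -0.027, and Ppm1h was -0.47 in 10CBD and -0.50 in 20CBD. Leaving out single libraries, values ran in 10CBD from -0.1743 to 0.0017 for Lrrk2 and from -0.018 to 0.1172 for Rab10, in 20CBD from -0.1147 to 0.091 for Ppm1m and from -0.1491 to 0.0644 for Rab10, and between the doses from -0.0677 to 0.0254 for Ppm1h, -0.0267 to 0.0678 for Rab8a, -0.2024 to 0.0103 for Rab10 and -0.0376 to 0.0749 for Rab29. Depth limits the values of Ppm1j, with 12 to 54 reads.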
